A study of Mus musculus with 9 samples.

Results

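Induced pluripotent stem cells (iPS cells) were compared with the mouse embryonic fibroblasts (MEF) that served as their cells of origin. The members are 6 of the 9 arrays of the series, 3 labelled MEF and 3 labelled iPS, and every value below is iPS minus MEF unless said otherwise. The MEF were cultured in vitro and taken at a passage below 3. The labels call the other group inducible pluripotent stem cells derived from embryonic fibroblasts. Both groups were measured as biotin-labelled cDNA of total RNA on Affymetrix whole-transcript arrays. The remaining 3 arrays hold the embryonic stem cell line R1 and are used as a reference level. They are also part of the fit, so their spread enters the standard errors, intervals and p-values of iPS minus MEF. The labels and the design text name no mouse strain, reprogramming factors, feeder cells or number of derivations. The design text calls the arrays of a line biological repeats, and the p-values cover the spread of those repeats, which may not be separate derivations.

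An embryonic fibroblast makes and crosslinks extracellular matrix, pulls on it through stress fibres and focal adhesions, and responds to growth factors of the PDGF and TGF-beta families. A pluripotent cell grows in compact epithelium-like colonies held together by E-cadherin, divides with a short first gap phase and keeps its state through a network of transcription factors around Oct4, Sox2 and Nanog. Reprogramming turns the first kind of cell into the second, and an early step of it is a change from mesenchymal to epithelial form.

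The label markers separated the groups on every array. Pou5f1, which encodes Oct4, had signals of 64.4, 48.2 and 46.5 on the MEF arrays and 3929, 4240.4 and 4240.4 on the iPS arrays, a log2 difference of 5.92 ± 0.09 (standard error from limma, adjusted p = 1.97e-10). Below, the value in parentheses after a gene's signals is this difference. Nanog had 50.6, 41.4 and 48.2 on the MEF arrays and 3591, 3717 and 3281 on the iPS arrays (5.82 ± 0.09). Cdh1, which encodes E-cadherin, had 71.5, 62.2 and 66.3 on the MEF arrays and 1951, 1596 and 1758 on the iPS arrays (4.43 ± 0.09). These 3 genes were low on all MEF arrays and high on all iPS arrays, with no overlap. Col1a1, a chain of type I collagen, had 9542, 10735 and 10156 on the MEF arrays and 1351, 1144 and 1193 on the iPS arrays (-3.03 ± 0.15), and Thy1, a surface protein of fibroblasts, had 1771, 2091 and 2062 on the MEF arrays and 226, 259.6 and 280.1 on the iPS arrays (-2.88 ± 0.12). Both were high on all MEF arrays and were lower on all iPS arrays, where neither was near the low end of the scale. Bulk RNA cannot tell fewer cells of a type from less RNA per cell.

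**Figure D1:**
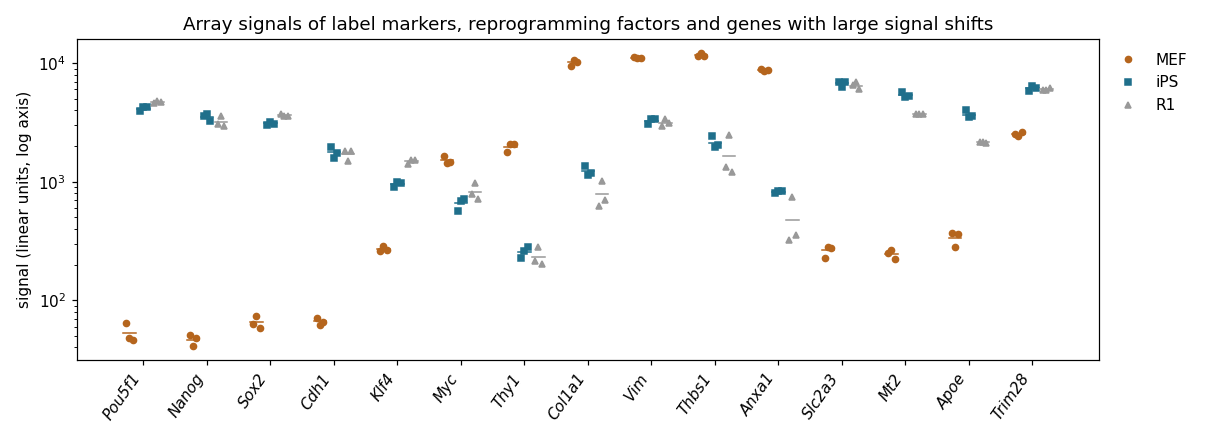
Signals (linear units on a log axis) of 15 genes on each array, with MEF as circles, iPS as squares, R1 as triangles and a short line for each group mean (n = 3). Pou5f1, Nanog, Sox2 and Cdh1 lie low on the MEF arrays and high on the iPS arrays, while Col1a1, Vim, Thbs1 and Anxa1 lie highest on the MEF arrays.

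Across 19938 genes, 1013 were called higher in iPS cells (5.08%) and 1511 were called lower (7.58%). Counts of list members below are to be read beside these shares. A call needs an adjusted p under 0.05 in limma and a log2 difference of at least 1 on the scale of log2(signal + 16), and "rose" and "fell" are kept for called genes. For all 2524 called genes the 3 MEF arrays and the 3 iPS arrays did not overlap. The median difference over all genes was 0.02, and for 12424 genes (62.3%) the 95% interval of the difference lay within 0.5 of 0. A larger pseudocount of 64 ended the call of some genes with low signals that are named below: Acvr2b, Aldh1a2, Cd68, Cox7a1, Cyp26a1, Emcn, Hoxc8, Itgb7, Nt5e, Smarca2, Syne1, Tfeb, Zfp985 and 8 microRNA genes with the host Mir17hg. Differences of 2 or more were found for 247 genes that rose and 442 that fell. At a difference of 4 or more the balance turned, with 41 genes higher and 9 lower. Among 2007 genes with a mean signal of at least 1000 in either group, 224 rose and 440 fell.

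**Figure D2:**
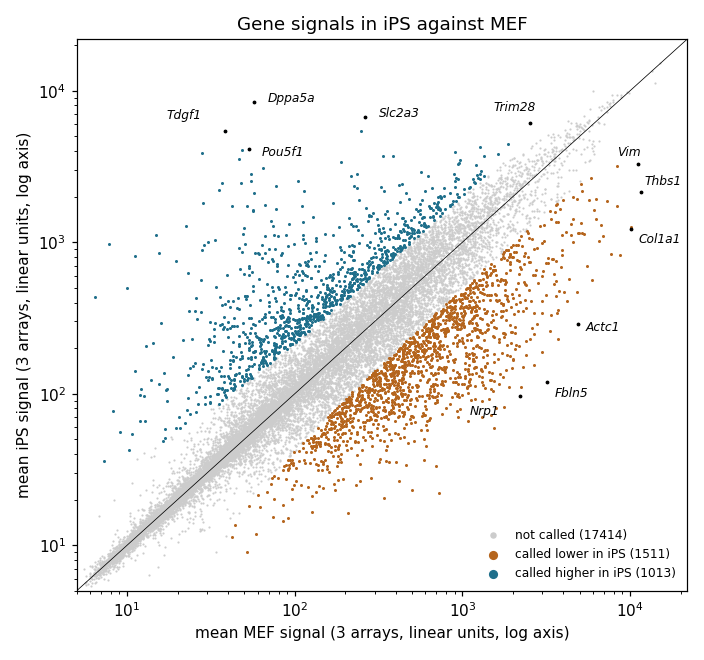
Mean signal of 19938 genes in MEF (horizontal) and iPS cells (vertical), 3 arrays each, linear units on log axes, with the diagonal marking equality. The 1013 genes called higher include Dppa5a and Tdgf1 far above the diagonal, and the 1511 called lower include Fbln5 and Nrp1 far below it. Named genes are black points.

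Of the genes that gained most signal, several are not pluripotency factors. Slc2a3, a glucose transporter with high affinity, had signals of 229, 284 and 278 on the MEF arrays and 6985, 6295 and 6985 on the iPS arrays (4.60 ± 0.09). Both metallothioneins, small zinc-binding proteins, rose: Mt2 had 249, 267 and 224 on the MEF arrays and 5673, 5221 and 5330.3 on the iPS arrays (4.37 ± 0.06), and Mt1 rose by 3.23 ± 0.08. These genes were moderate on every MEF array and several-fold higher on every iPS array. Apoe, a lipid carrier, rose from 338 ± 48.4 to 3690 ± 281 (mean and SD, n = 3), and Gsta4, a glutathione transferase for lipid peroxides, rose from 189 ± 13.1 to 3371 ± 234. Trim28, a corepressor that silences retroviral elements, had 2539, 2452 and 2628 on the MEF arrays and 5833, 6472 and 6208 on the iPS arrays, a difference of 1.27 ± 0.05. Trh, the precursor of thyrotropin-releasing hormone, rose by 5.98 ± 0.14 and the DNA methylation cofactor Dnmt3l by 5.43 ± 0.15.

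Of the genes that lost most signal, most encode matrix or cytoskeletal proteins. Thbs1, the matrix protein thrombospondin, had signals of 11426, 12077 and 11505 on the MEF arrays and 2419, 1951 and 2034 on the iPS arrays (-2.45 ± 0.23). Vim, the intermediate filament vimentin, had 11268, 11036 and 10960.3 on the MEF arrays and 3061, 3397 and 3397 on the iPS arrays (-1.75 ± 0.06). Anxa1, a membrane-binding annexin, had 8964, 8539.9 and 8780 on the MEF arrays and 798, 838 and 838 on the iPS arrays (-3.38 ± 0.25). All 3 fell, and none of them reached a low signal in iPS cells. Vim kept 29.6% of its mean MEF signal and Anxa1 kept 9.41%. Lgals1, a galectin, fell (-2.26), as did the matrix proteins Tnc and Bgn (-2.63 and -2.66).

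Among the 15 largest decreases were genes outside the classical fibroblast markers. Nrp1, a receptor for semaphorins and VEGF, had signals of 2149.8, 2288 and 2149.8 on the MEF arrays and 114, 81.6 and 96.3 on the iPS arrays (-4.30 ± 0.19). Lrrc17 had 1193, 1965 and 1489 on the MEF arrays and 76.1, 48.2 and 54.6 on the iPS arrays (-4.36 ± 0.17), and Aspn, a small leucine-rich proteoglycan, had 572, 910.2 and 695 on the MEF arrays and 22.6, 23.8 and 19.6 on the iPS arrays (-4.26 ± 0.15). All 3 genes were high on every MEF array and dim on every iPS array. Fbn2, an elastic-fibre fibrillin, fell (-4.08), as did Ccdc80 (-3.95) and the tendon membrane protein Tnmd (-3.86).

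Most pluripotency factors rose, and the list is ordered here by developmental state. Of 30 measured genes 25 rose, with a list median of 2.28 beside 0.02 for all genes. All 4 core factors rose, among them Sox2 (5.27 ± 0.07). So did all 15 genes listed under the naive state, the state of the early epiblast. Within this listed group the differences ran from 1.34 for Tbx3 to 6.65 for Tdgf1. Tdgf1, a co-receptor of Nodal, is also listed among the growth-factor receptors, and whether it marks the naive state was not tested. Nr0b1, an orphan nuclear receptor, had signals of 26.2, 16.6 and 40.8 on the MEF arrays and 3061, 3984 and 4640.3 on the iPS arrays (6.50 ± 0.20), and Esrrb, an orphan nuclear receptor of the naive network, had 67.2, 44.9 and 57.3 on the MEF arrays and 1428, 1808 and 1596 on the iPS arrays (4.49 ± 0.12). Tbx3, Klf5 and Klf4 were already measurable in MEF, with mean signals of 251, 493 and 271. Of 11 factors of the later formative and primed states, 6 rose: Dnmt3b, Zic2, Eomes, Lef1, Otx2 and Fgf5. The difference of Fgf5, 1.30, was 0.96 without iPS replicate 1 and then not called. Sox11 had a difference of -0.78 ± 0.09 and Sox3 of 0.29 ± 0.09, and neither was called. Myc, a reprogramming factor, had 1652, 1438 and 1468 on the MEF arrays and 572, 689.8 and 719 on the iPS arrays (-1.19 ± 0.12). It fell, while its relative Mycn rose (4.08 ± 0.13).

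Genes of the contractile apparatus fell together. Of 37 measured contractile and stress-fibre genes 25 fell and the others were not called, with a median of -2.01. Acta2, smooth-muscle actin, had signals of 10369, 9809.8 and 10298 on the MEF arrays and 1361, 1252 and 1160.1 on the iPS arrays (-3.00 ± 0.28). Tagln, an actin-binding protein of smooth muscle, had 5753, 5793 and 6165 on the MEF arrays and 639, 516 and 534 on the iPS arrays (-3.36 ± 0.24). Myl9, a regulatory light chain of non-muscle and smooth-muscle myosin, had 3259, 3350.1 and 3327 on the MEF arrays and 259.6, 259.6 and 259.6 on the iPS arrays (-3.59 ± 0.08). The iPS arrays kept 12.4% of the MEF signal for Acta2, 9.53% for Tagln and 7.84% for Myl9. The LIM protein Fhl2 fell (-3.53), as did the LIM adaptor Lpp (-3.29) and the actin crosslinker Flnc (-3.27). Ubiquitous members were not called: cytoplasmic actin Actb had a difference of -0.32 ± 0.04, tropomyosin Tpm3 of -0.27 ± 0.04 and the crosslinker Actn4 of -0.68 ± 0.05. The 4 transcriptional regulators of the group (Srf, Mrtfa, Mrtfb and Myocd) ranged from -0.90 to -0.30 and were not called. Uncalled does not mean unchanged here. At an adjusted p under 0.05 in limma with no minimum difference, 36 of the 37 genes were lower and 1 was higher. All 4 regulators were among the lower ones, and 23.2% of all genes were lower by that rule. In the summed level of the list the MEF arrays lay between 115100 and 117600 and the iPS arrays between 40150 and 41040.

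Serum response factor (SRF), which drives many of these genes, binds the CArG box, a site of 10 bases. In the 250 bases before the transcription start, 227 of 15614 measured genes with a RefSeq promoter (1.45%) held a CArG box, a motif that reads the same on both strands. Over all 32851 promoters of the table the share was 1.47%. Of the 31 contractile genes with a promoter 6 held one (19.4%), 5 of them among the genes that fell. The windows below, from RefSeq on GRCm38.p6, show a box in capitals for each of those 6 genes because SRF is the known regulator of the group. Srf and Fhl2 each hold a further box. That of Srf is in lower case in its window, and that of Fhl2, in another promoter, is not shown. Srf itself is the member among them that was not called. A match describes letters in the window and is no evidence of binding.
Myl9, chr2:156775273-156775342, plus strand: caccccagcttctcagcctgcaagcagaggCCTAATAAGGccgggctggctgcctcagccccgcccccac
Cnn2, chr10:79988514-79988583, plus strand: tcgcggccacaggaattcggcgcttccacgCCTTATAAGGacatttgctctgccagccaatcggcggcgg
Myl6, chr10:128493020-128493089, minus strand: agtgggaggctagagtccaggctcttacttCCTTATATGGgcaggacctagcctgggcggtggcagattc
Fhl1, chrX:56779551-56779620, plus strand: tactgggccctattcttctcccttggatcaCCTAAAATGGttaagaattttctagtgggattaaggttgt
Fhl2, chr1:43196818-43196887, minus strand: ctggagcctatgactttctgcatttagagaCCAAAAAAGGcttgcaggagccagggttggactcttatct
Srf, chr17:46556205-46556274, minus strand: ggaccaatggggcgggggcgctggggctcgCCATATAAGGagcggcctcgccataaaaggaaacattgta
Of these genes, Myl9 and Fhl2 fell most (-3.59 and -3.53), followed by Cnn2 and Fhl1 (-2.47 and -2.13) and by Myl6 (-1.06).

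Genes of adhesion to the matrix fell among receptors and adaptors. Of 31 integrins and focal-adhesion genes 17 fell and 1 rose. Among the receptors, Itgav fell (-2.83), as did the fibronectin receptor chains Itga5 and Itga4 (-2.66 and -2.63). Itga6, a laminin receptor chain, had signals of 815, 826 and 719 on the MEF arrays and 622, 709 and 729 on the iPS arrays and a 95% interval of -0.35 to -0.03. Its array values overlapped between the groups. Itgb7 was the chain that rose (1.14 ± 0.13), by less with a pseudocount of 64 (0.80, not called). Among the adaptors, Parva, Tns1 and the kinase-like scaffold Ilk fell (-3.39, -3.37 and -2.46), while Tns3 had a difference of 0.90 ± 0.06 and paxillin (Pxn) of -0.34 ± 0.08, both uncalled. Of 10 genes of caveolae, the flask-shaped pits of the plasma membrane, 6 fell. Cav1, their main coat protein, had 1629, 1314 and 1596 on the MEF arrays and 103, 105 and 103 on the iPS arrays (-3.67 ± 0.15), and the cavin Cavin2 fell from 461 ± 51.8 to 34.1 ± 4.96. The muscle form Cav3 had a difference of -0.23 and was not called.

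Genes of collagen production fell at each step. Of 55 genes for collagen chains and the enzymes that fold, cut, export and join them, 37 fell, with a median of -1.60. By step, the calls covered 8 of 9 fibrillar chains, 10 of 13 hydroxylases and chaperones, 2 of 5 processing genes, all 4 crosslinking oxidases and 4 of 6 secretion genes. Lox, which starts crosslinking, had signals of 3468, 3875 and 3743 on the MEF arrays and 391, 300.2 and 377 on the iPS arrays (-3.33 ± 0.27). Loxl1 fell from 1681 ± 107 to 136 ± 9.43 and the fibrillar chains Col5a2 and Col3a1 fell (-3.62 and -3.39). Of 8 basement-membrane chains 2 fell. P4hb, a subunit of prolyl hydroxylase that also works as a general disulfide isomerase, had 5008, 5113 and 5043 on the MEF arrays and 2504, 2469 and 2592 on the iPS arrays with a difference of -0.999 (standard error 0.043), which is short of a call and was called in 3 of the 6 fits that left out a MEF or iPS array.

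Genes of matrix breakdown and its inhibitors fell in part. Of 29 matrix proteases and inhibitors 15 fell and 1 rose. The calls covered all 5 genes of the plasminogen system, 4 of 7 Adamts proteases and 3 of 5 inhibitors. Of 12 metalloproteinases 3 fell and 1 rose, with a median of -0.19. The aggrecanase Adamts5 had signals of 537, 391 and 572 on the MEF arrays and 27.5, 22.6 and 19.6 on the iPS arrays (-3.71 ± 0.14), and the plasminogen activator Plau had 1342, 1399 and 1351 on the MEF arrays and 106, 112 and 108 on the iPS arrays (-3.47 ± 0.11). Both were higher on every MEF array than on any iPS array. The membrane metalloproteinase Mmp14 and the inhibitor Timp3 fell (-2.69 and -2.65). Mmp3, a stromelysin, went the other way with 82.1, 74.5 and 78.8 on the MEF arrays and 826, 685 and 572 on the iPS arrays (2.90 ± 0.11).

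The transcription factors downstream of cell spreading and tension include YAP and TAZ, which act through the TEAD proteins. Of 33 genes of this pathway 19 fell and Nt5e rose. Yap1 itself had signals of 923, 989 and 1024 on the MEF arrays and 969, 885 and 867 on the iPS arrays, which overlap, and a 95% interval of -0.24 to 0.02. Ajuba, Stk4 and Tead2 were not called either, with differences of 0.89, 0.64 and -0.35. Of 13 target genes 9 fell. Ankrd1, a muscle ankyrin-repeat protein, had 2210.3, 1418 and 2062 on the MEF arrays and 95.01, 119 and 119 on the iPS arrays (-3.90 ± 0.26), and Axl, a receptor kinase, had 3061, 2837 and 2998 on the MEF arrays and 165, 195 and 202 on the iPS arrays (-3.88 ± 0.14). The cofactor Vgll3 and the Hippo kinase Lats2 fell (-2.72 and -2.53), and the matricellular protein Ccn2 fell (-1.96). The rise of Nt5e (1.22 ± 0.24) was 0.98 without iPS replicate 1 and so no longer called.

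The core of the TEAD site, GGAATG or on the other strand CATTCC, was sought in the same windows. Overlapping matches do not matter, since a gene is scored as with or without the core. It was present in 12.6% of all promoters, in 2060 of 15614 measured genes (13.2%), in 15 of 28 genes of the pathway list (53.6%) and in 6 of 10 target genes with a promoter (60.0%). It was also present in 13 of the 31 contractile genes (41.9%). The windows of the target and feedback genes that fell are shown with the core in capitals, again as letters and not as bound sites. A further core of Ankrd1, nearer the start, is not shown.
Ccn1, chr3:145650053-145650118, minus strand: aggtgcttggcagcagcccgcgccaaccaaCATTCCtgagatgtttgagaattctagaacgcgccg
Ankrd1, chr19:36120019-36120084, minus strand: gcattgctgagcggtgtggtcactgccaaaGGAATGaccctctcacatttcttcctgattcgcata
Axl, chr7:25788931-25788983, minus strand: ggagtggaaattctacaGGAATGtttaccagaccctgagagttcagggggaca
Crim1, chr17:78200139-78200204, plus strand: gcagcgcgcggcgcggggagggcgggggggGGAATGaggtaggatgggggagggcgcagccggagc
Amotl2, chr9:102717709-102717774, plus strand: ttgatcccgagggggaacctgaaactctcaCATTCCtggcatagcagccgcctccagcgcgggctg
The 16 genes of the list that fell and had a promoter held the core in 9 cases (56.2%), and the 11 uncalled genes held it in 6 cases (54.5%). Ccn1 and Amotl2, a feedback inhibitor of YAP, fell (-1.89 and -1.51), as did the growth-factor binding protein Crim1 (-3.19).

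The AP-1 factors, which act beside TEAD at fibroblast enhancers, differed in both directions. Fosl2 had signals of 1252, 1128 and 1287 on the MEF arrays and 236, 241 and 249 on the iPS arrays (-2.26 ± 0.08), and Fosl1 fell (-1.69). Fos had 205, 247 and 221 on the MEF arrays and 617, 530.1 and 689.8 on the iPS arrays (1.38 ± 0.15), and Fosb rose by 1.16 ± 0.20, or 0.96 without MEF replicate 2, where it was not called. Jun fell (-1.26 ± 0.13), while Jund differed by -0.30 ± 0.06. All Fosl2 values were higher in MEF and all Fos values were higher in iPS cells. Of 20 AP-1 and immediate-early genes, 2 rose and 6 fell.

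Epithelial genes rose in part. Of 50 measured genes 19 rose and 2 fell. Epcam, an epithelial adhesion molecule, had signals of 27.3, 20.97 and 19.03 on the MEF arrays and 1218, 1209 and 1418 on the iPS arrays (5.08 ± 0.09). The claudins Cldn6 and Cldn4 form the strands of tight junctions. Cldn6 had 67.2, 70.03 and 61.8 on the MEF arrays and 923, 719 and 891 on the iPS arrays (3.38 ± 0.12). Cldn4 had 126, 95.7 and 116 on the MEF arrays and 1144, 969 and 1053 on the iPS arrays (3.06 ± 0.09). All 3 were higher on every iPS array than on any MEF array. Spint2, an inhibitor of membrane serine proteases, rose by 3.39 ± 0.16, and Esrp1, an epithelial splicing factor, by 4.40 ± 0.12. Junction proteins shared by many tissues were not called: Tjp1 had a 95% interval of -0.01 to 0.20, Ctnnd1 a difference of -0.26 ± 0.05 and plakoglobin (Jup) of 0.16 ± 0.12. Keratins did not move together, since Krt8 rose (1.19 ± 0.16) and Krt19 fell (-1.44 ± 0.12). Among gap junctions, Gjb2 fell (-2.51 ± 0.21) and Gja1 had a difference of 0.57 ± 0.10. Of 17 other cadherins 8 fell, among them Cdh2 (N-cadherin, -2.53 ± 0.07), Cdh11 (-3.07 ± 0.14) and the protocadherin Pcdh18 with 1607, 1541 and 1641 on the MEF arrays and 103, 66.7 and 71.01 on the iPS arrays (-4.09 ± 0.14).

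Genes of nuclear and cytoplasmic filaments differed in both directions. Of 19, 1 rose (5.26%, near the 5.08% of all genes) and 6 fell (31.6%, beside 7.58% of all genes). Lmna, the A-type lamin that stiffens the nucleus, had signals of 2006, 2048 and 2091 on the MEF arrays and 258, 282 and 282 on the iPS arrays (-2.83 ± 0.05). Lmnb1, a B-type lamin, had 1113, 1152 and 1218 on the MEF arrays and 2091, 2135 and 2062 on the iPS arrays, a difference of 0.84 ± 0.05 that did not reach a call. The A-type lamin was thus lower on all iPS arrays and the B-type lamin higher. Nestin (Nes, -2.36) fell, as did desmin (Des, -1.57) and the envelope linker Syne1 (-1.19). Ina, a neuronal intermediate filament, rose from 73.5 ± 9.1 to 772 ± 52.4. The lamin-binding proteins Lbr, Banf1 and Tmpo were not called, with differences of 0.56, 0.13 and 0.12.

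Many mesenchymal transcription factors fell. Of 63 measured genes 35 fell and 1 rose. All 8 factors of the epithelial to mesenchymal transition fell, from Prrx1 (-3.08) and Snai2 (-2.93) to Prrx2 (-2.12). Of 8 forkhead factors 5 fell, of 16 homeobox factors 4 and of 6 T-box factors 2. Tbx15, a T-box factor of the limb and skin mesenchyme, had signals of 560.3, 639 and 617 on the MEF arrays and 47.2, 47.2 and 40.5 on the iPS arrays (-3.35 ± 0.08). Nfix had 1468, 1722 and 1438 on the MEF arrays and 175, 154 and 153 on the iPS arrays (-3.14 ± 0.09), and Runx1 and Foxc2 fell (-2.85 and -2.68). The factor that rose was Epas1, the hypoxia-inducible factor HIF-2 alpha, with 91.8, 95.01 and 93.7 on the MEF arrays and 338, 491 and 439.6 on the iPS arrays (1.99 ± 0.12). Six4 (0.33 ± 0.11) and Pbx3 (-0.84 ± 0.07) were among those not called.

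Growth factors and their receptors differed in both directions. Of 49 ligands 8 rose and 18 fell, and of 41 receptors 4 rose and 19 fell. Within the TGF-beta superfamily, Tgfb3 had signals of 2135, 2226 and 2304 on the MEF arrays and 116, 105 and 109 on the iPS arrays (-4.15 ± 0.17), and Inhba, the subunit of activin A, fell (-2.62). Gdf3 had 60.5, 57.3 and 51.6 on the MEF arrays and 1479, 1795 and 1607 on the iPS arrays (4.50 ± 0.08), and Nodal and its inhibitors Lefty1 and Lefty2 rose by 2.97 ± 0.20, 3.11 ± 0.31 and 3.16 ± 0.24. In this family Tgfb3 and Inhba were thus higher in MEF, and Gdf3, Nodal and the Lefty genes were higher in iPS cells. Bmp4 had 626, 568 and 657 on the MEF arrays and 576, 484 and 626 on the iPS arrays, which overlap. In the FGF family Fgf7, a mesenchymal ligand, fell (-3.03 ± 0.21) and Fgf4, an autocrine ligand of pluripotent cells, rose (2.44 ± 0.12). Ptn, Igf2 and Csf1 fell (-4.18, -3.34 and -3.15).

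Among the receptors, Pdgfrb, through which PDGF acts on mesenchyme, had signals of 1783, 2179.8 and 2062 on the MEF arrays and 182, 159.8 and 165 on the iPS arrays (-3.45 ± 0.12), and its relative Pdgfra fell (-2.77). Kit, the stem cell factor receptor, had 70.5, 60.97 and 60.1 on the MEF arrays and 982, 1121 and 792 on the iPS arrays (3.61 ± 0.12). Pdgfrb was higher on every MEF array and Kit on every iPS array. The collagen receptor Ddr2 and the oncostatin receptor Osmr fell (-3.60 and -3.13). Of the type I and II receptors of the TGF-beta superfamily, Acvr2b rose (1.18 ± 0.06), Acvr1 fell (-1.75 ± 0.11), and Tgfbr1 and Bmpr1a differed by -0.89 and -0.38 without a call. Of 52 axon-guidance genes, which also steer migrating mesenchyme, 20 fell (38.5%, beside 7.58% of all genes). In the other direction 3 rose (5.77%, near the 5.08% of all genes). Sema3a and Epha3 fell (-3.65 and -3.37), while Sema4d and Sema4b rose (1.46 and 1.41).

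**Figure D3:**
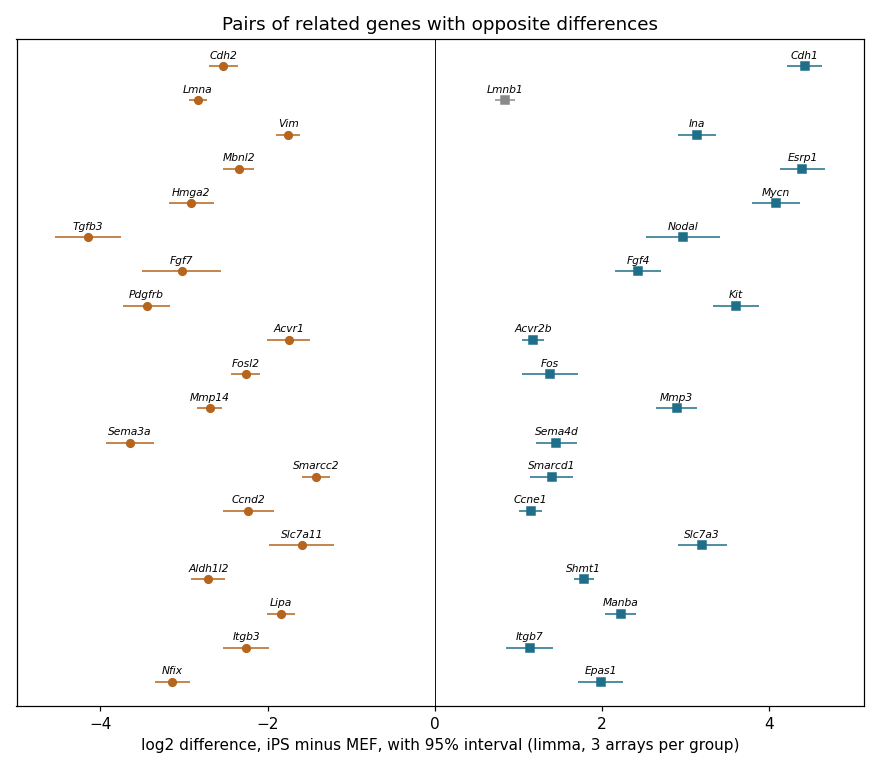
Log2 differences, iPS minus MEF, with 95% intervals from limma (3 arrays per group), for 19 pairs of genes, each pair from 1 list or gene family and chosen after the values were seen to show members that differ in opposite directions. Blue squares were called higher, brown circles were called lower, and the grey square, Lmnb1, was not called, and examples are Cdh1 with Cdh2 and Nodal with Tgfb3.

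Some secreted immune mediators fell. Of 39 chemokines, cytokines, complement and prostanoid genes 8 fell. Ptgs2, the inducible cyclooxygenase, had signals of 5405, 4299.6 and 4871 on the MEF arrays and 1038, 1098 and 1305 on the iPS arrays (-2.07 ± 0.16). Cxcl12, a chemoattractant, fell (-2.78), as did the decoy receptor Tnfrsf11b (-2.77). Of 23 genes of MHC class I presentation 2 fell (8.7%, near the 7.58% of all genes), the light chain B2m with 2469, 2610.3 and 2469 on the MEF arrays and 760.1, 755 and 719 on the iPS arrays (-1.74 ± 0.25) and Irf2 (-1.40 ± 0.09). The loading chaperones Calr and Pdia3 had uncalled differences of -0.73 ± 0.06 and -0.58 ± 0.08.

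RNA-binding proteins of splicing and of early development also changed. Among 32 splicing regulators 6 rose and 4 fell. The muscleblind proteins Mbnl1 and Mbnl2 promote splicing patterns of differentiated cells. Mbnl1 fell (-2.21), and Mbnl2 had signals of 2487, 2539 and 2469 on the MEF arrays and 410.1, 508 and 526 on the iPS arrays (-2.35 ± 0.08). Rbm47 and Rbpms2 rose by 2.45 ± 0.08 and 1.95 ± 0.10, while Ptbp1 and the SR protein Srsf1 differed by 0.10 ± 0.04 and 0.38 ± 0.05, both uncalled. Of 20 genes of oncofetal RNA binding and the let-7 axis 7 rose and 1 fell. Lin28a, which blocks maturation of let-7 microRNAs, had 124, 57.3 and 70.03 on the MEF arrays and 898, 855 and 792 on the iPS arrays (3.17 ± 0.19), and Trim71, a let-7 target that stabilises the undifferentiated state, had 108, 104 and 119 on the MEF arrays and 1585, 1618 and 2006 on the iPS arrays (3.79 ± 0.09). Of the genes known to be repressed by let-7, Mycn rose (4.08 ± 0.13) and Igf2bp1 rose (1.79 ± 0.05), whereas Hmga2 fell with 2592, 2778 and 2592 on the MEF arrays and 367, 313 and 338 on the iPS arrays (-2.91 ± 0.12). Of the processing machinery, Dicer1, Ago2 and Xpo5 were not called, with differences of 0.12, -0.40 and 0.24.

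MicroRNAs pair with their targets through the seed, bases 2 to 8 of the mature strand. Of 62 measured microRNA genes 10 rose and 2 fell. The array reports labelled cDNA of total RNA at the microRNA gene, so primary, precursor and mature forms cannot be told apart. With a pseudocount of 64, which weighs down low signals, 3 rose and 1 fell, and with none 12 rose and 8 fell. Among genes with a mean signal of at least 100 in a group, 6 rose and 1 fell. The RefSeq table of GRCm38.p6 held 60 of the 62 genes and 11 of the 12 that were called. The mature strands below are shown with the seed in capitals. In these strands 5 of the 10 genes that rose share a seed with another of them. Mirlet7f-1 follows and, of the genes that fell, Mir125b-1. A single strand is shown for each gene, and none for Mir302a.
miR-17-5p, chr14:115043684-115043706, plus strand: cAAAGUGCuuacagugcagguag
miR-20a-5p, chr14:115044183-115044205, plus strand: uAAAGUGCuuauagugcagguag
miR-106a-5p, chrX:52742541-52742563, minus strand: cAAAGUGCuaacagugcagguag
miR-18a-5p, chr14:115043867-115043889, plus strand: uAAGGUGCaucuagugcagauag
miR-19a-3p, chr14:115044048-115044070, plus strand: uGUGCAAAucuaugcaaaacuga
miR-19b-3p, chr14:115044358-115044380, plus strand: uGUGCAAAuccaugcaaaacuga
miR-302b-3p, chr3:127545275-127545297, plus strand: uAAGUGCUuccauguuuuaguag
miR-302c-3p, chr3:127545406-127545427, plus strand: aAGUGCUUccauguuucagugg
let-7f-5p, chr13:48537889-48537910, minus strand: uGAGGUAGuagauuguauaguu
miR-125b-5p, chr9:41581940-41581961, plus strand: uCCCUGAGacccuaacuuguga
The strands of Mir17, Mir20a and Mir106a share the seed AAAGUGC, and those of Mir19a and Mir19b-1 share GUGCAAA. The strands shown of Mir18, Mir302b, Mir302c and Mirlet7f-1 each have a seed of their own when the seed is read strictly by position. The seed of miR-302b-3p, AAGUGCU, also opens miR-302c-3p, 1 base nearer the start. The seeds of these strands thus overlap in AGUGCU and are not unrelated letters. The other strands of Mir302b and Mir302c, miR-302b-5p and miR-302c-5p, are not shown and share the seed CUUUAAC. The letters AAGUGC occur within the seeds of miR-17-5p and miR-302b-3p, 1 base apart in position.

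The Mir17 cluster was higher on every iPS array. Mir20a had signals of 62.7, 66.3 and 58.9 on the MEF arrays and 256, 194 and 242 on the iPS arrays (1.64 ± 0.12), and Mir18 had 91.8, 82.7 and 85.04 on the MEF arrays and 304, 244 and 345 on the iPS arrays (1.60 ± 0.13). Mir19b-1 had 40.5, 40.8 and 46.5 on the MEF arrays and 191, 127 and 175 on the iPS arrays (1.61 ± 0.16). In all 3 genes iPS replicate 2 was the lowest iPS array and still lay above every MEF array. Mir17, Mir19a and the host transcript Mir17hg rose by 1.29 ± 0.14, 1.54 ± 0.17 and 1.14 ± 0.10. Mir106a, from the related X-linked cluster, rose by 1.01 ± 0.14, which was 0.99 without MEF replicate 3 and 0.81 without iPS replicate 3, short of a call.

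The Mir302 cluster, typical of pluripotent cells, gave low signals that varied between arrays. Mir302b had signals of 7.16, 9.25 and 8.22 on the MEF arrays and 101, 30.9 and 100.4 on the iPS arrays (1.83 ± 0.29), and Mir302c had 9.99, 9.13 and 7.94 on the MEF arrays and 74.5, 28.8 and 64.4 on the iPS arrays (1.46 ± 0.21). Mir302a had 7.52, 7.11 and 7.16 on the MEF arrays and 51.6, 17.4 and 38.6 on the iPS arrays (1.10 ± 0.20). On iPS replicate 2 all 3 genes were at their lowest iPS value. Without iPS replicate 1 the difference of Mir302a, 1.10, was 0.88 and no longer called. On the R1 arrays Mir302b read 8.63, 11.9 and 11.9, and the difference of iPS cells from R1 was 1.69 ± 0.29 for Mir302b and 1.25 ± 0.21 for Mir302c. Against R1, 92 of 19938 genes (0.461%) were called in either direction, and both genes were among them, although neither was with a pseudocount of 64 (0.87 and 0.62). In the other direction, Mir145a, a smooth-muscle microRNA, had signals of 362, 335 and 399 on the MEF arrays and 39.1, 40.2 and 27.3 on the iPS arrays (-2.89 ± 0.12), and Mir125b-1 fell (-1.55). Mirlet7f-1 was the let-7 gene that rose (1.08 ± 0.18).

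**Figure D4:**
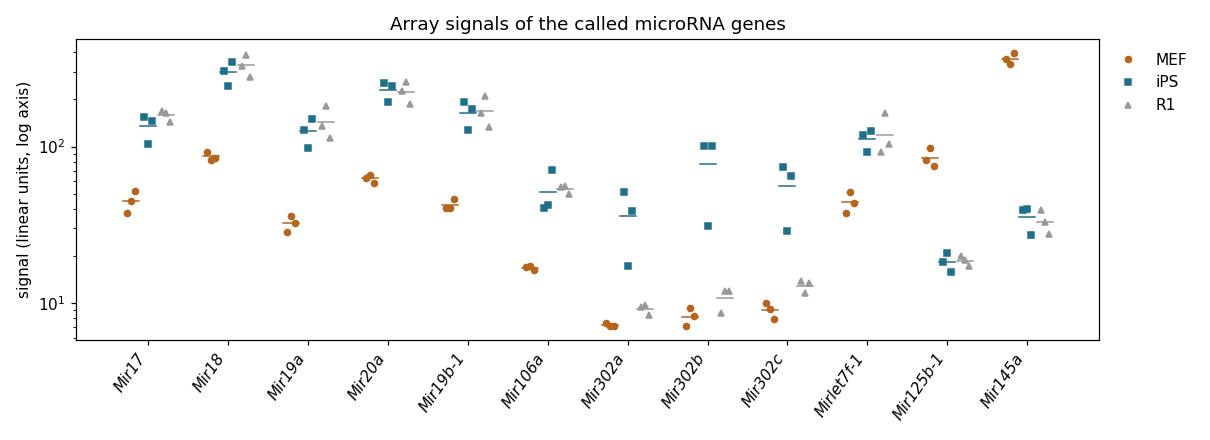
Signals (linear units on a log axis) of the 12 called microRNA genes on each MEF (circles), iPS (squares) and R1 (triangles) array, with lines for group means (n = 3). The genes of the Mir17 cluster lie higher on the iPS and R1 arrays than on the MEF arrays, and the Mir302 genes lie higher on the iPS arrays than on both others.

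Genes of genome maintenance rose in part, mostly by moderate amounts. Of 50 DNA repair genes 20 rose, with a median of 0.78. Chek2, a checkpoint kinase, had signals of 115, 115 and 143 on the MEF arrays and 729, 815 and 781 on the iPS arrays (2.50 ± 0.08). The mismatch repair protein Msh6 had 425, 388 and 449 on the MEF arrays and 2257, 2436 and 2419 on the iPS arrays (2.45 ± 0.06), and the end-joining protein Xrcc5 had 413, 446 and 422 on the MEF arrays and 1629, 1872 and 1992 on the iPS arrays (2.06 ± 0.08). These 3 were well separated between the groups. Fanci, Parp1 and Ung rose by 1.59, 1.54 and 1.49, while Ercc1 had an uncalled difference of -0.76 ± 0.08. Of 17 telomere genes 6 rose, led by Rif1 with 322, 335 and 317 on the MEF arrays and 2210.3, 2272 and 2452 on the iPS arrays (2.77 ± 0.06) and Terf1 (1.62 ± 0.06). Of 25 BAF chromatin remodelling subunits 2 rose and 2 fell, 8.0% each way, which is near the 5.08% and 7.58% of all genes. Smarcd1 and Actl6a rose by 1.40 ± 0.11 and 1.15 ± 0.04, and Smarcc2 and Smarca2 fell (-1.42 and -1.08). The ATPase Smarca4 had a 95% interval of -0.14 to 0.06.

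Genes of ribosome production were higher by less than the call threshold. Of 40 ribosome biogenesis genes 6 rose, but 38 were higher at an adjusted p under 0.05 with no minimum difference, against 24.8% of all genes by that rule. By the same rule 23.2% of all genes were lower. The list median was 0.72. Nucleolin (Ncl) had signals of 3591, 3421 and 3421 on the MEF arrays and 5221, 5185 and 5113 on the iPS arrays (0.57 ± 0.04) and nucleophosmin (Npm1) a difference of 0.57 ± 0.06. The RNA polymerase I subunits Polr1b and Polr1c rose by 1.24 ± 0.06 and 1.13 ± 0.05. Genes of the respiratory chain differed by small amounts: of 75 nuclear-encoded subunits 58 had a 95% interval within 0.5 of 0, beside 62.3% of all genes. With no minimum difference 33 of the 75 were higher and 6 lower, with a list median of 0.12. The 2 that rose, Cox6b2 and Cox7a1, are 2.67% of the list, beside 5.08% of all genes. Both are tissue-restricted isoforms of complex IV. Cox6b2 had signals of 87.4, 72.5 and 95.7 on the MEF arrays and 300.2, 352 and 311 on the iPS arrays (1.74 ± 0.09). Cox7a1 rose by 1.22 ± 0.09.

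**Figure D5:**
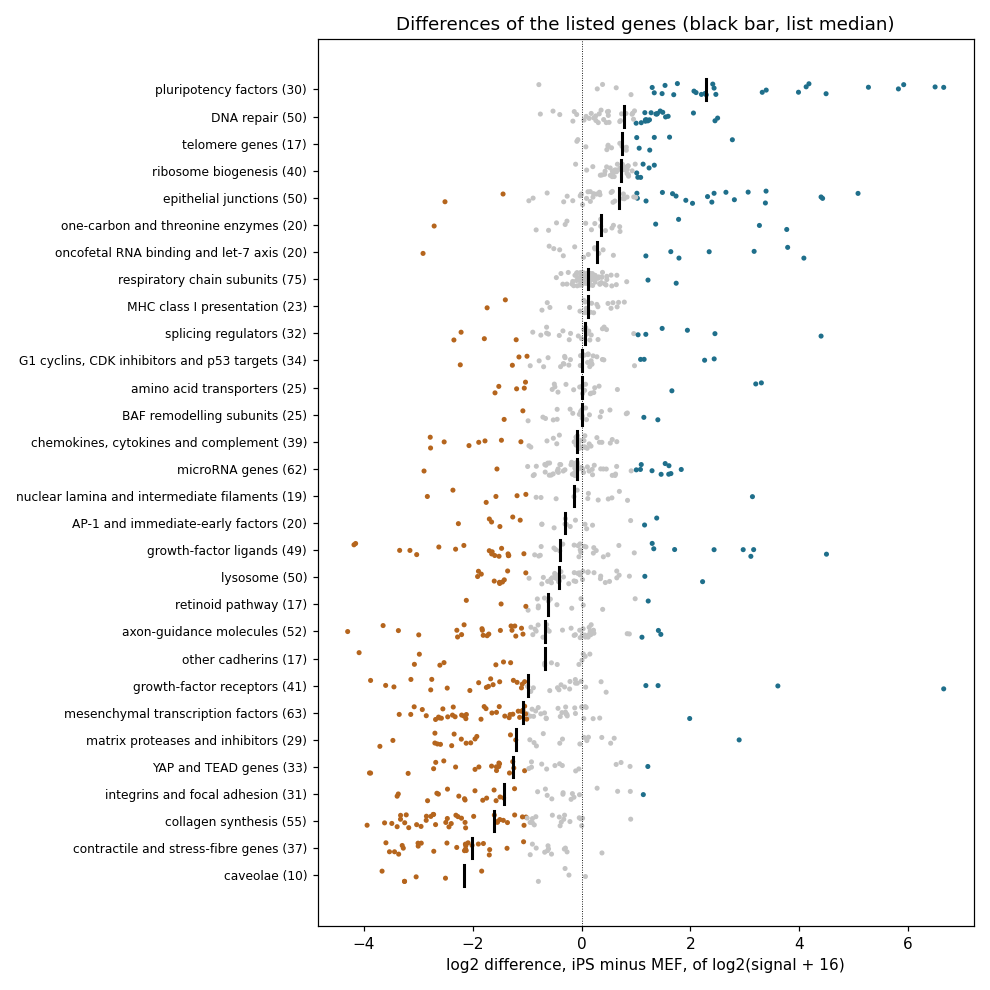
Log2 differences (iPS minus MEF) of the measured genes of 30 lists, 1 point per gene, blue for called higher, brown for called lower and grey for not called, with a black bar at each list median and a dotted line at the median of all genes (0.02). The pluripotency list lies farthest to the right and the caveolae and contractile lists farthest to the left, while the respiratory chain lies near 0.

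Single enzymes and transporters of metabolism changed. Gldc, a subunit of the glycine cleavage system that feeds folate with carbon units, had signals of 58.1, 72.00 and 69.1 on the MEF arrays and 1144, 1024 and 1152 on the iPS arrays (3.77 ± 0.08), and its partner Amt had 48.5, 50.6 and 50.2 on the MEF arrays and 526, 662 and 676 on the iPS arrays (3.27 ± 0.08). The cytosolic folate enzymes Shmt1 and Mthfd1 rose by 1.78 ± 0.05 and 1.36 ± 0.07, while the mitochondrial Aldh1l2 fell (-2.71 ± 0.09). Of 20 one-carbon genes 4 rose and 1 fell. Among 25 amino acid transporters 3 rose and 5 fell (3 after quantile normalization): the cationic transporter Slc7a3 had 208, 272 and 228 on the MEF arrays and 2048, 2402 and 2436 on the iPS arrays (3.20 ± 0.13), and the cystine transporter Slc7a11 fell (-1.59). Of 50 lysosomal genes 10 fell, such as the acid lipase Lipa (-1.84 ± 0.07) and cathepsin K (Ctsk, -1.91 ± 0.10), and 2 rose, the mannosidase Manba (2.22 ± 0.08) and the regulator Tfeb (1.16 ± 0.08). Of 17 genes of the retinoid pathway 3 fell (17.6%) and 1 rose (5.88%), beside 7.58% and 5.08% of all genes. The retinoic acid binding protein Crabp1 had 3641, 4299.6 and 3875 on the MEF arrays and 885, 936 and 861 on the iPS arrays (-2.12 ± 0.07). The synthesising dehydrogenase Aldh1a3 fell (-1.48 ± 0.16). Aldh1a2 fell (-1.02 ± 0.18), or was uncalled at -0.91 without MEF replicate 2 and at -0.98 without iPS replicate 1. Cyp26a1, which breaks retinoic acid down, rose (1.23 ± 0.17), or was uncalled at 0.998 without iPS replicate 1.

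Of 34 G1 cyclins, CDK inhibitors and p53 targets 4 rose and 4 fell, 11.8% each way beside 5.08% and 7.58% of all genes. Of the 8 cyclins and kinases 1 rose and 1 fell. Ccnd2 had signals of 3822, 3929 and 4012 on the MEF arrays and 809, 832 and 832 on the iPS arrays (-2.23 ± 0.13). Ccne1, the cyclin of late G1, had 936, 936 and 929 on the MEF arrays and 2034, 2195 and 2048 on the iPS arrays (1.15 ± 0.06). Ccnd2 was higher on every MEF array and Ccne1 on every iPS array, while Ccnd1 had an uncalled difference of -0.31 ± 0.14. The inhibitors Cdkn2b and Cdkn1c fell (-1.27 and -1.15). Of the genes that p53 can induce, Trp53inp1 and Gadd45a rose by 2.44 ± 0.06 and 2.26 ± 0.14, and Mdm2 and Ccng1 had uncalled differences of 0.18 ± 0.08 and -0.34 ± 0.05.

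Called genes lay side by side in 45 runs of 3 or more neighbouring measured genes that moved in 1 direction, 17 of them higher and 28 lower, with 150 genes out of 19919 placed on the RefSeq map. Runs of paralogs and of genes on overlapping transcripts can share probes or promoters. The longest were the Mir17 cluster on chromosome 14 and 6 zinc-finger genes on chromosome 4 (Zfp980, Zfp600, Zfp991, Zfp982, Zfp985 and Zfp979), members of a family of near-identical genes, so that their separate values are uncertain. Zfp980 had signals of 8.63, 7.84 and 7.06 on the MEF arrays and 709, 1128 and 1089.9 on the iPS arrays (5.35 ± 0.16). On chromosome 6 Gdf3, Dppa3, Nanog and Slc2a3 rose by 4.50, 2.10, 5.82 and 4.60. On chromosome 15 Hoxc9, Hoxc8, Hoxc6 and Hoxc5 fell (-1.38, -1.19, -1.67 and -1.69). A run on chromosome 14 held unrelated genes that fell together, namely Zswim8, Ndst2, Camk2g, Plau and Vcl.

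Markers of other cell types were read in both groups. All 9 skeletal muscle markers fell: their summed level was 6630 to 8023 on the MEF arrays and 762.9 to 973.6 on the iPS arrays. Cardiac actin Actc1 had signals of 4513, 4837 and 5293 on the MEF arrays and 365, 239 and 267 on the iPS arrays (-4.02 ± 0.14), and the embryonic myosin Myh3 and the muscle factor Myog fell (-3.15 and -2.02). The part of this muscle RNA of the MEF cultures in the fall of the contractile list was not tested. Of 6 cartilage markers Col2a1 fell (-2.31 ± 0.09), with 3 called lower without MEF replicate 1 and 2 without iPS replicate 3, and their summed level was 1322 to 1719 on the MEF arrays and 548.4 to 569.8 on the iPS arrays. Among 8 macrophage markers the defining genes Adgre1 and Csf1r had mean signals under 50 in both groups, and Cd68 alone was called, higher in iPS cells (1.12 ± 0.10, and 0.89 and not called with a pseudocount of 64). Among 8 endothelial markers Pecam1, which pluripotent cells also carry, rose (1.81 ± 0.21), and Emcn fell (-1.04 ± 0.06), or -0.97 and uncalled without iPS replicate 3. No member of the neural (6), keratinocyte (5), adipocyte (5) and erythroid (2) lists was called by limma, and 2, 2, 2 and 1 of them had an unadjusted p under 0.05.

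Most fibroblast markers fell. Of 14 fibroblast markers 12 fell, with a median of -2.95, and the 2 that were not called were Dcn, with 359.5, 367 and 388 on the MEF arrays and 644, 461 and 410.1 on the iPS arrays (0.40 ± 0.14), and Lum, with a difference of -0.69 ± 0.09. The summed level of the list was 48220 to 55080 on the MEF arrays, 8325 to 9307 on the iPS arrays and 7231, 8829 and 7458 on the R1 arrays. R1 replicates 1 and 3 lay below every iPS array, and R1 replicate 2 alone lay within the iPS range. Between iPS cells and R1 none of the 14 was called by limma, with 4 at an unadjusted p under 0.05, and without R1 replicate 2 the oxidase Lox was called, at 1.02 against 0.63 ± 0.27 with all arrays. Col1a1 had signals of 626, 1024 and 704 on the R1 arrays, where replicate 2 was the highest. Its difference from R1 was 0.67 ± 0.15, and 0.87 without that array. Of the 37 contractile genes 2 were called against R1, beside 0.461% of all genes, Acta2 (1.15 ± 0.28) and Tagln (1.17 ± 0.24). Acta2 read 369.6, 976 and 478 on the R1 arrays, again highest on replicate 2, and its difference was 1.54 without that array. Without any other array of the series the adjusted p of Acta2 lay between 0.0506 and 0.11, and that of Tagln lay between 0.0525 and 0.0647 without iPS replicate 1, R1 replicate 1 or R1 replicate 3.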

How the data were processed

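Total RNA of MEF, iPS cells and R1 cells was measured on 3 arrays per group, and the labels' titles gave the groups. The values are linear intensity, as the authors deposited them for each probe set of each array, with GCOS 1.4 named in the submitters' processing notes without a role. How probes were summarised and arrays normalized is not given in the sources used here. Signals run from 4 to 18820.3, with array medians of 78.2 to 83.3, and on the log2 scale each has 2 decimals. No detection call or depth comes with them, so the number of arrays limits the precision.

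The array has 35557 probe sets. The platform annotation gave a single gene symbol for 21789, several for 1621 and no entry for 12147, and only the first kind was named. By Entrez number 21698 matched RefSeq (GRCm38.p6), which changed 0 symbols. The probe set with the highest mean was kept for 999 genes that had more than 1, leaving 19938 genes. The values were taken to log2 after adding 16, and limma 3.58.1 in R 4.3.3 fitted group means over all 9 arrays (6 residual degrees of freedom) with Benjamini-Hochberg adjustment over all genes. Adding 16 understates the change of dim genes. Standard errors and 95% intervals come from this fit and so include the spread of the R1 arrays. A mean ± SD is of linear signals over 3 arrays. Tables were joined in Python 3.11.15 with pandas 2.3.3, and plots were drawn with matplotlib 3.10.9. In simulated data for this comparison on all 19938 genes, 90% of 50 genes set 1.25 apart were called. Of 50 genes each set 2 and 4 apart, 92% and 94% were called. Simulated signals could not go below 0, so a dim gene set lower could not show its full difference. These shares therefore depend on the dim genes drawn as well as on the spread. Of 50 set 0.5 apart 0% were called, an outcome that the minimum difference of 1 largely sets.

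The members and the 39 lists (1198 genes, 1103 measured) were chosen with earlier results of these data known. Genes are named by rule: the 15 largest increases and decreases, the 12 largest gains and losses of signal, up to 6 called members per list and direction, called members that moved against their list and up to 4 bright uncalled ones, the 8 longest runs of neighbours, the label markers with Sox2, Klf4 and Myc, and every called microRNA gene. The text gives a part of these. Acvr1, Adgre1, Dnmt3b, Eomes, Klf5, Krt8, Lef1, Otx2, Prrx2, Tbx3, Zic2, Mrtfa, Mrtfb, Myocd and the further genes of the promoter windows (Amotl2, Ccn1, Cnn2, Fhl1, Myl6 and Srf) stand outside the rule and were chosen after their values were seen. Promoters (250 bases before the start searched) and mature microRNAs come from RefSeq on GRCm38.p6. Alternatives covered scaling, pseudocount, dim genes, probe sets, arrays in the fit, the minimum difference, variance models, a replicate block and leaving out each array. Leaving out R1 arrays was added after seeing the data.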

Additional observations from a re-analysis of the deposited data

How the results depend on the processing

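Of the 264 genes named for iPS against MEF none changed sign under any alternative that gave it a value, and 206 of the 214 called ones were called in each fit that left out 1 MEF or iPS array. Without 1 of those arrays the counts ran from 955 to 1084 genes higher, 1449 to 1587 lower, 264 to 272 for the genes the naming rule picks (273 called with all arrays) and 419 to 434 for listed genes (423 with all arrays). With no minimum difference 4945 genes were higher, 4627 lower and 843 listed genes called, so that 51.7% of calls were higher in place of 40.1%, and 1 fibroblast marker differed from R1. A limma test against a difference of 1 called 588 genes higher. Leaving out an R1 array, an alternative chosen after seeing the data, called 0 to 1 fibroblast markers between iPS cells and R1. Quantile normalization gave 1101 higher and 1420 lower, and a pseudocount of 64 gave 708 and 1190. The other alternatives gave counts within 1.5 times, and scaling moved the median of all genes by less than 0.1. An intensity trend, a fit of only MEF and iPS arrays and leaving out an R1 array each gave 1013 higher and 1511 lower. These fits leave the differences of iPS from MEF as they were and change only the p-values. Their equal counts are thus no separate support for the calls.

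The deviations of same-numbered MEF and iPS arrays had correlations of 0.229, 0.062 and -0.018 over genes for replicates 1, 2 and 3. These values do not settle whether the numbers pair the arrays. With the replicate block 1013 genes were higher and 1511 lower, and it changed no call of a named gene. Each group holds every replicate number, so the block leaves the differences as they were. Calls could change only through the p-values, and the equal counts do not show whether the arrays are paired. With dim genes left out 13 named genes have no value, and the fit of only MEF and iPS arrays gives none for R1.

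Signal over background limits the low end: 28.5% of genes had both means under 50, where detection cannot be judged from these values. The 3 arrays per group, whose derivation is not stated, set the errors.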
